A study of Drosophila melanogaster with 17 samples.

Results

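The data described here are the transcript response of dDP mutant eye discs to gamma radiation in Drosophila melanogaster larvae. Its members were 3 arrays labelled as irradiated and 3 labelled as untreated dDP eye discs, 6 of the 17 arrays of the series, and the response was the difference between the 2 groups in log2 RMA level. Larvae of all groups were raised at one temperature on standard food to the 3rd instar. Irradiated larvae received 40 Gy, and their eye discs were dissected 4 h later. The other arrays held 3 irradiated and 3 untreated samples of de2f1 discs, in which E2f1 was removed from the posterior part, and 2 irradiated (numbers 1 and 3) and 3 untreated wild type samples. The dDP allele, the means of removing E2f1 and the number of larvae in a sample are not given in the sources used here. Each array, an Affymetrix Drosophila Genome 2.0 design, was made from 50 ng of total RNA. The replicates are labelled as biological, and p-values measure only the spread between these samples.

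Dp pairs with E2F proteins, which bind DNA as heterodimers. Activating E2F complexes drive genes of DNA replication and of nucleotide synthesis, and repressing complexes with RB family proteins and dREAM subunits hold other genes down. Ionizing radiation breaks DNA, which activates ATM and ATR family kinases, the checkpoint kinases and p53. In Drosophila imaginal discs these lead to repair gene expression, arrest of the cell cycle and apoptosis through the caspase Dronc. Neither kind of E2F complex binds without Dp, and the comparison asks which genes respond to radiation in discs that carry the dDP mutation.

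The genotype was checked first. Dp read log2 8.88, 8.25 and 8.69 on irradiated and 8.94, 8.06 and 8.27 on untreated dDP arrays, against means of 10.14 ± 0.13 in irradiated (SD, n = 2) and 10.39 ± 0.03 in untreated wild type discs (SD, n = 3). All 6 dDP arrays thus lay below the wild type arrays, and Dp did not pass the test for a change on irradiation (0.18 ± 0.19, limma, adjusted p = 0.607). All 12 measured eye disc markers, such as the retinal determination gene eya and the proneural gene ato, read log2 8.22 or higher on every dDP array, and none of them passed the test. Their mean was 10.54 to 10.62 on irradiated and 10.51 to 10.68 on untreated dDP arrays.

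Several dDP arrays stood apart. The actin control probe sets gave 3-prime minus 5-prime differences of log2 1.96, 2.11 and 2.06 on the irradiated and 1.90, 3.05 and 3.26 on the untreated dDP arrays, against 1.69 to 2.28 on the arrays other than dDP untreated 2 and 3. GAPDH and eIF-4a control probe sets were also most 3-prime weighted on untreated arrays 2 and 3 (1.95 and 2.05 for GAPDH, 2.38 and 2.51 for eIF-4a). Salivary gland markers averaged 7.36, 12.58 and 12.46 on irradiated and 7.03, 5.84 and 6.14 on untreated dDP arrays, so the mean was highest on irradiated arrays 2 and 3. The glue gene Sgs3 read 5.55, 13.55 and 14.45 on irradiated and 5.26, 6.73 and 5.65 on untreated dDP arrays, and the other Sgs genes and Eig71Ee had the same high arrays. The ng genes of the list followed another pattern, and ng1 read 10.17, 12.44 and 7.21 on irradiated and 11.41, 4.46 and 7.56 on untreated dDP arrays. Fat body markers averaged 8.56, 9.22 and 10.51 on irradiated and 12.27, 7.09 and 7.45 on untreated dDP arrays. Means of the gut markers were 4.75, 7.66 and 4.72 on irradiated and 8.03, 4.94 and 4.94 on untreated dDP arrays. No salivary gland, fat body, gut, hemocyte, trachea or muscle marker passed the test. Snap25 of the 10 neuron markers and Gli of the 9 glia markers rose, and sro of the 8 ring gland markers fell. The Gli call was lost without untreated arrays 2 and 3 (adjusted p = 0.392). In bulk discs fewer cells of a type and less RNA per cell cannot be told apart.

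**Figure D1:**
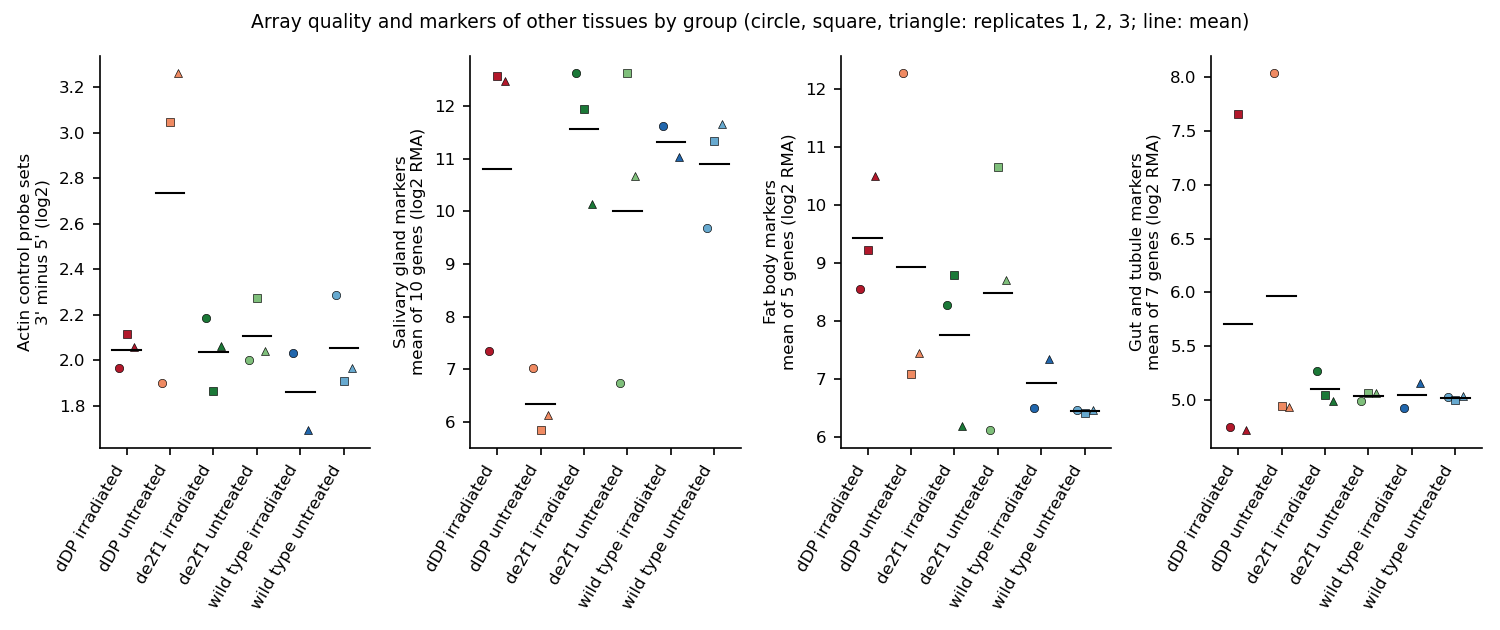
Log2 difference between 3-prime and 5-prime actin control probe sets, and mean log2 RMA level of 10 salivary gland, 5 fat body and 7 gut and tubule markers, for each array of the 6 groups (symbols are replicates 1, 2 and 3, lines are group means). Untreated dDP arrays 2 and 3 have actin differences of 3.05 and 3.26, irradiated arrays 2 and 3 have salivary gland means of 12.58 and 12.46, and untreated array 1 has a fat body mean of 12.27.

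Irradiation changed 1659 of 18769 probe sets in dDP discs at a Benjamini-Hochberg adjusted p under 0.05, with 836 higher (4.45%) and 823 lower (4.38%). With 1 probe set taken per gene, 649 of 11982 genes rose (5.42%) and 709 fell (5.92%), and 54 rises against 8 falls went beyond 2-fold. Outside the 40% dimmest probe sets the shares were 7.42% and 7.79% of 8557 genes. The calls of 348 rises (2.90%) and 287 falls (2.40%) held with each dDP array left out in turn. In all of these the irradiated and untreated arrays did not overlap, so asking for that too removed none. Among all 11982 genes, called or not, the groups did not overlap for 2794 (23.3%), so lack of overlap alone is common. The total of probe sets was 962 to 3849 when 1 dDP array was left out. The fit pooled the spread of all 6 groups for each probe set. Median SD was 0.0869 on irradiated and 0.114 on untreated dDP arrays, against 0.0637 to 0.0802 in the other groups. Where dDP arrays varied more, standard errors of dDP changes can thus be too small. Of the called genes, 330 rises and 140 falls also passed without untreated arrays 2 and 3 together, and 140 rises and 51 falls with the 6 dDP arrays fitted alone.

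The wild type response, measured on other arrays, ran in the same direction for most genes. Of 400 genes that rose in irradiated wild type discs (3.34%), 384 had a positive and 282 a called rise in dDP discs, which was 43.5% of the dDP rises and 70.5% of the wild type ones. Their median change was 0.42 in dDP and 0.54 in wild type discs. For genes picked by a called dDP rise instead, the medians were 0.44 in dDP and 0.265 in wild type discs. Of 305 genes that fell in wild type discs (2.55%), 283 were negative and 162 fell in dDP discs, 22.8% of the dDP falls and 53.1% of the wild type ones. Here the median change was -0.25 in dDP and -0.42 in wild type discs. For genes picked by a called dDP fall the medians were -0.31 in dDP and -0.163 in wild type discs. Between dDP and wild type the median was thus larger in size in the genotype whose calls picked the genes, so these medians do not rank the responses. Of 209 genes that rose in de2f1 discs (1.74%), 181 rose in dDP discs, 27.9% of the dDP rises and 86.6% of the de2f1 ones. The medians of these genes were 0.58 in dDP and 0.55 in de2f1 discs, against 0.44 and 0.174 for genes picked by a called dDP rise. Of 153 genes that fell in de2f1 discs (1.28%), 89 fell in dDP discs, 12.6% of the dDP falls and 58.2% of the de2f1 ones. Over all genes the median change was -0.03 in dDP, -0.02 in de2f1 and -0.01 in wild type discs.

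Among genes of damage signalling p53 and 2 of its regulators rose, Rchy1 and Corp more than p53 itself, and the signalling kinases mostly did not pass. Of 14 measured members 3 rose and 1 fell, with a median of 0.08, against the 5.42% and 5.92% of all genes. These 2 shares are the ones to set beside every dDP list count below. The lists were chosen with earlier results of these data known, so a list share above them is a description and not a test. Rchy1, a ubiquitin ligase gene whose mammalian counterpart acts on p53, read 11.19, 11.03 and 11.24 on irradiated and 9.69, 9.55 and 9.68 on untreated dDP arrays. The groups did not overlap, and the rise was 1.51 ± 0.07 (SE, adjusted p = 1.3e-07). Corp, a regulator of p53 in flies, read 9.01, 9.76 and 9.39 on irradiated and 7.29, 7.98 and 8.45 on untreated dDP arrays. Its rise of 1.48 ± 0.23 (adjusted p = 0.00127) came with the widest spread of the 3 genes named here, and it did not pass with the 6 dDP arrays alone (adjusted p = 0.101). p53 itself read 9.91, 10.42 and 10.04 on irradiated and 9.27, 9.82 and 9.75 on untreated dDP arrays, so untreated array 2 came close to irradiated array 1. The p53 rise of 0.51 ± 0.14 (adjusted p = 0.0325) was lost with the salivary gland markers as a covariate (adjusted p = 0.208) and with the dDP arrays alone (adjusted p = 0.287). lok, the Chk2 checkpoint kinase gene, fell by 0.32 on the log2 scale (SE 0.06, adjusted p = 0.00255), but not with the dDP arrays alone (adjusted p = 0.117) or after leaving out untreated arrays 2 and 3 (adjusted p = 0.104). The ATM and ATR kinase genes tefu (0.13, adjusted p = 0.264) and mei-41 (-0.15, adjusted p = 0.313) did not pass.

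Most genes for the handling and joining of broken DNA ends rose. Of 10 measured members 6 rose and none fell, all 6 held with each dDP array left out, and the median change was 0.59 in dDP and 0.97 in wild type discs, where 7 rose. Ku80, which with Irbp forms the ring that binds broken ends, read 10.49, 10.89 and 10.61 on irradiated and 9.07, 9.43 and 9.50 on untreated dDP arrays. It rose by 1.32 ± 0.12 (adjusted p = 8.2e-06), and Irbp, the Ku70 gene, by 1.19 ± 0.13 (adjusted p = 4.7e-05). Both genes had every irradiated dDP array above every untreated one, and every untreated dDP array above every untreated wild type one.

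mre11 and rad50, the nuclease and the ATPase of the MRN complex, also rose, and their untreated dDP arrays read above the untreated wild type arrays. The mre11 level was 11.77, 11.99 and 11.75 on irradiated and 10.84, 10.96 and 11.10 on untreated dDP arrays, a rise of 0.87 ± 0.08 (adjusted p = 2.1e-05). In wild type discs it averaged 11.58 ± 0.09 irradiated (SD, n = 2) and 9.66 ± 0.10 untreated (SD, n = 3). The irradiated means of the 2 genotypes were thus nearer to each other than the untreated means. The dDP response of mre11 was smaller than that of wild type (difference -1.04 ± 0.12, adjusted p = 0.00172), which held with each array left out. rad50 read 11.69, 11.92 and 11.68 on irradiated and 10.97, 11.14 and 11.04 on untreated dDP arrays, and its rise of 0.71 ± 0.07 (adjusted p = 1.7e-05) differed from that of wild type by -0.67 ± 0.10 (adjusted p = 0.00993), a call that did not hold with each array left out. The third MRN gene, nbs, changed by 0.26 (adjusted p = 0.254). DNAlig4, the end joining ligase gene (1.15, adjusted p = 2.3e-04), and gkt, which encodes a phosphodiesterase that cleans DNA ends (0.48, adjusted p = 6.6e-04), were the other rises and were named after their values were seen. None of 8 genes of homologous recombination and its helicases and none of 5 of crosslink repair passed, with medians of -0.09 and 0.04. Without untreated array 1 and irradiated array 2, 3 of the 8 fell and 1 of the 5 rose. In the crosslink repair group Fancd2 (-0.14), Fancl (-0.21), Fancm (0.37), mus301 (0.04) and Snm1 (0.06) had adjusted p of 0.0928 or more, and the 2 nearest to the threshold, Fancm (0.0928) and Fancl (0.0939), went opposite ways.

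**Figure D2:**
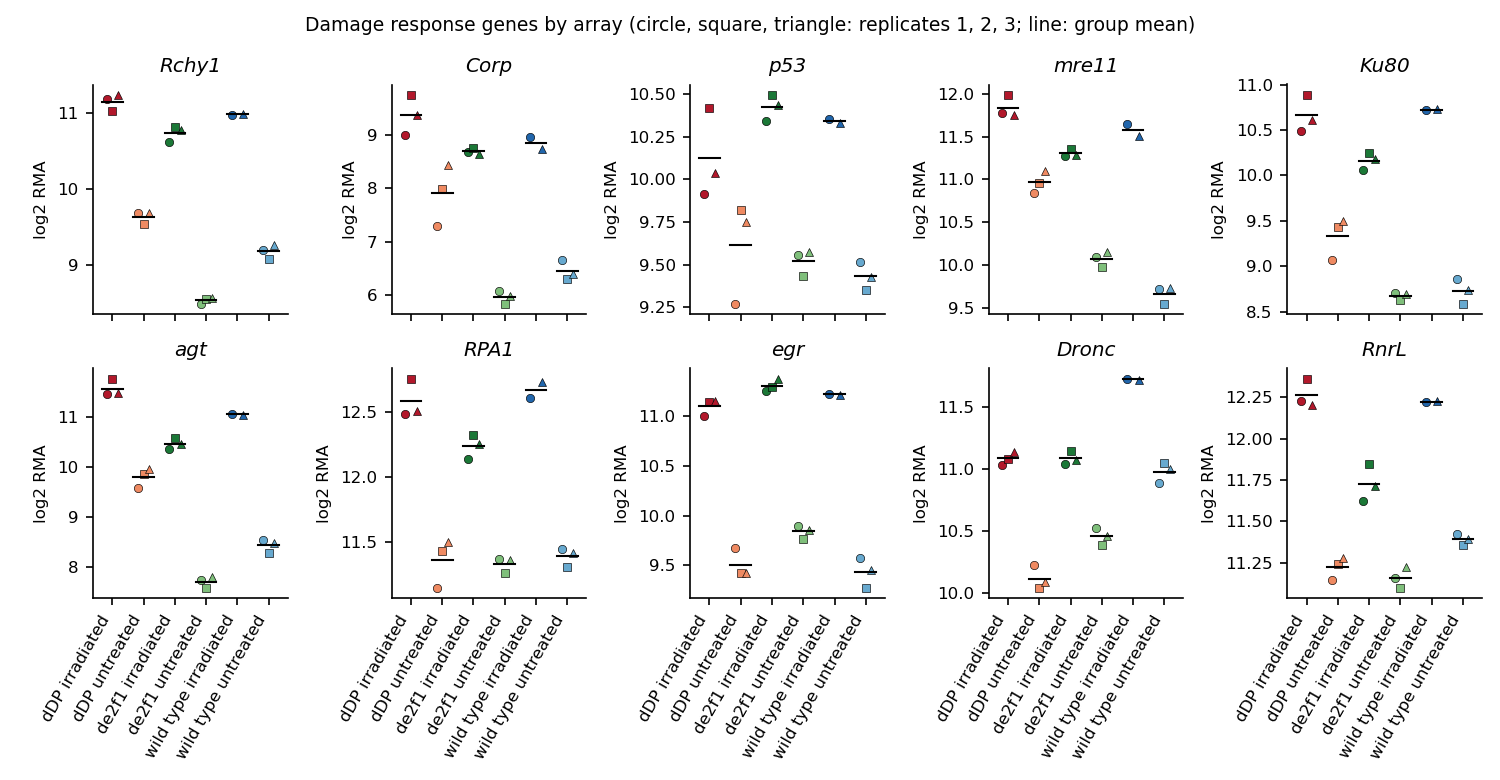
Log2 RMA level of 10 genes of the damage response on each array of the 6 groups (symbols are replicates 1, 2 and 3, lines are group means). In each panel the irradiated dDP arrays lie above the untreated ones. For Rchy1, Corp, mre11, Ku80 and agt the untreated dDP arrays lie above the untreated wild type arrays.

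Of 12 genes for excision and alkyl repair, 5 rose and 1 fell (median 0.15). agt, the gene of the alkyltransferase that takes alkyl groups off guanine, had the largest rise of the list. It read 11.46, 11.76 and 11.49 on irradiated and 9.59, 9.86 and 9.96 on untreated dDP arrays, a rise of 1.77 ± 0.11 (adjusted p = 5.2e-07). The rise was smaller than that of de2f1 discs (difference -0.996 ± 0.15, adjusted p = 0.0183), a call that did not hold with each array left out. Against wild type the agt difference was -0.85 ± 0.16 and did not pass (adjusted p = 0.061). Xpc, the damage recognition gene of nucleotide excision repair, rose by 0.60 ± 0.05 (adjusted p = 6.1e-06), hay, the XPB helicase gene, by 0.52 ± 0.07 (adjusted p = 3.9e-04), and XRCC1, a scaffold of single-strand break repair, by 0.59 ± 0.09 (adjusted p = 0.00128). With the dDP arrays alone hay and XRCC1 did not pass (adjusted p = 0.0748 and 0.0618).

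Of 9 genes for single-strand DNA binding and clamp loading, 4 rose and 1 fell (median 0.15). RPA1, the large subunit of replication protein A, read 12.49, 12.75 and 12.50 on irradiated and 11.15, 11.43 and 11.50 on untreated dDP arrays. Its rise was 1.22 ± 0.09 (adjusted p = 3.0e-06), and the groups were far apart. RPA2 rose by 0.55 ± 0.06 (adjusted p = 3.9e-05). The clamp loader subunits went opposite ways. RfC4 read 12.20, 12.31 and 12.11 on irradiated and 11.58, 11.75 and 11.69 on untreated dDP arrays and rose by 0.53 ± 0.06 (adjusted p = 8.6e-05). RfC3 read 8.69, 8.13 and 8.29 on irradiated and 9.41, 9.30 and 9.31 on untreated dDP arrays and fell by 0.97 on the log2 scale (SE 0.11, adjusted p = 9.6e-05). RfC3 changed by -0.17 in wild type discs (adjusted p = 0.652), and the difference of the responses, -0.80 ± 0.17, did not pass (adjusted p = 0.0997).

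Apoptosis genes moved individually. Of 13 measured members 3 rose (23.1%) and 2 fell (15.4%), with a median near 0. Dronc, the initiator caspase gene, read 11.04, 11.08 and 11.14 on irradiated and 10.22, 10.04 and 10.08 on untreated dDP arrays, a rise of 0.97 ± 0.06 (adjusted p = 5.7e-07). In wild type discs the same gene averaged 11.73 ± 0.01 irradiated (SD, n = 2) and 10.98 ± 0.08 untreated (SD, n = 3), so the dDP arrays were lower in both states. Dark, the adaptor on which Dronc is activated, rose by 0.57 ± 0.06 (adjusted p = 5.3e-05). Bruce, a large inhibitor of apoptosis, read 9.43, 9.28 and 9.28 on irradiated and 9.21, 8.44 and 8.32 on untreated dDP arrays, low only on untreated arrays 2 and 3, whose actin controls were the most 3-prime weighted. Its rise of 0.67 ± 0.17 (adjusted p = 0.0232) shrank to 0.12 without those 2 arrays (adjusted p = 0.724) and to 0.24 when the actin difference was a model term (adjusted p = 0.0594). The caspase gene Dredd fell by 0.19 on the log2 scale (SE 0.05, adjusted p = 0.023), but not without untreated arrays 2 and 3 (adjusted p = 0.461). Of the killer genes, skl did not pass (0.45, adjusted p = 0.655), grim read below the lower quartile of the arrays on all 6 dDP arrays, and rpr and hid were not analysed here.

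TNF and JNK pathway genes rose in 7 of 14 cases with none falling, and the median was 0.37 in both dDP and wild type discs. egr, the TNF ligand of the fly, read 11.004, 11.14 and 11.15 on irradiated and 9.67, 9.42 and 9.43 on untreated dDP arrays, a rise of 1.59 ± 0.08 (adjusted p = 1.5e-07). The arrays of each group were close together, and in wild type discs the rise was 1.79 ± 0.09. Its adaptor gene Traf4 read 11.40, 11.59 and 11.49 on irradiated and 10.80, 10.65 and 10.78 on untreated dDP arrays and rose by 0.75 ± 0.07 (adjusted p = 2.8e-05). The Jun gene Jra rose by 0.38 ± 0.05 (adjusted p = 5.9e-04), and scaf, a known JNK target, by 0.62 ± 0.09 (adjusted p = 7.5e-04), and neither passed with the dDP arrays alone (adjusted p = 0.0593 and 0.0606). None of 9 measured JAK/STAT and disc injury signal genes passed (median 0.12), but 4 rose without untreated array 1 and irradiated array 2.

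Replication genes fell more often in wild type than in dDP discs, and the dDP count depended on single arrays. Of 33 measured members 3 rose and 4 fell in dDP discs (median -0.08), against 1 rise and 13 falls in de2f1 (median -0.24) and 1 rise and 19 falls in wild type discs (median -0.40). The mean level of the list was 9.76 to 9.84 on irradiated and 9.73 to 9.85 on untreated dDP arrays, so the groups overlapped. The 4 dDP falls became 14 without untreated array 1 and irradiated array 1, 9 without untreated array 1 and irradiated array 2, and 0 without untreated arrays 2 and 3. The dDP median was 0.0040 relative to untreated array 1, and -0.12 and -0.11 relative to untreated arrays 2 and 3. On wild type arrays the mean level was 9.15 to 9.19 irradiated and 9.50 to 9.57 untreated. For 30 of the 33 genes the dDP minus wild type difference was positive, and for 7 of them, dup, dpa, Ts, dnk, Mcm5, PolE1 and PolE2, it passed, against 0.125% of all genes tested in this direction. Of these calls those of dup and dpa held with each array left out, and those of Ts, dnk, Mcm5, PolE1 and PolE2 did not. Mcm5, PolE1 and PolE2 were named after their values were seen.

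dup, the Cdt1 gene that loads the replicative helicase, read 10.19, 10.05 and 10.18 on irradiated and 10.17, 10.06 and 10.06 on untreated dDP arrays. These groups overlapped (0.05 ± 0.05, adjusted p = 0.664), whereas dup changed by -0.75 ± 0.06 in wild type discs (adjusted p = 3.6e-06). The dup difference was 0.79 ± 0.08 (adjusted p = 9.9e-04) and held with each array left out, and against de2f1 discs it was 0.66 ± 0.08 (adjusted p = 0.00243). dpa, the Mcm4 subunit of that helicase, read 10.56, 10.49 and 10.51 on irradiated and 10.27, 10.30 and 10.40 on untreated dDP arrays. It rose by 0.20 ± 0.05 (adjusted p = 0.0309), a call that neither the omission of untreated arrays 2 and 3 (adjusted p = 0.0663) nor the dDP arrays alone (adjusted p = 0.246) gave, while the difference from wild type, 0.69 ± 0.08 (adjusted p = 0.00143), held with each array left out. Ts, the thymidylate synthase gene, read 9.40, 9.31 and 9.29 on irradiated and 9.53, 9.49 and 9.51 on untreated dDP arrays. Its change of -0.18 ± 0.09 did not pass (adjusted p = 0.239), and it was above the wild type change of -1.02 by 0.84 ± 0.13 (adjusted p = 0.0155). PCNA, the sliding clamp, changed by 0.15 ± 0.05 (adjusted p = 0.0905) in dDP and by -0.30 ± 0.06 in wild type discs (difference 0.44 ± 0.07, adjusted p = 0.0244). The PCNA difference did not hold with each array left out and passed under 13 of 25 alternatives, with adjusted p up to 0.24.

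RnrL, the large subunit of ribonucleotide reductase, was the strongest rise of the list in all 3 genotypes. It read 12.23, 12.36 and 12.20 on irradiated and 11.15, 11.25 and 11.28 on untreated dDP arrays, a rise of 1.04 ± 0.06 (adjusted p = 5.2e-07). Changes in the other genotypes were 0.57 in de2f1 and 0.83 in wild type discs. dnk, the deoxynucleoside kinase gene of the salvage pathway, rose by 0.44 ± 0.08 (adjusted p = 0.004), but not with the dDP arrays alone (adjusted p = 0.0834) or with salivary gland markers as a covariate (adjusted p = 0.0802). Psf2, of the GINS complex, and the licensing gene Cdc6 fell by 0.32 and 0.24 on the log2 scale (adjusted p = 0.0058 and 0.0237), and both calls were lost without untreated arrays 2 and 3 (adjusted p = 0.22 and 0.53). CycE (0.08, adjusted p = 0.654) did not pass. Among 9 E2F, RB family and dREAM subunit genes, Rbf rose by 0.30 ± 0.06 (adjusted p = 0.00464) and lin-52 fell by 0.32 on the log2 scale (SE 0.07, adjusted p = 0.0136). With the dDP arrays alone neither Rbf (adjusted p = 0.091) nor lin-52 (adjusted p = 0.176) passed. E2f1 was not analysed here.

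**Figure D3:**
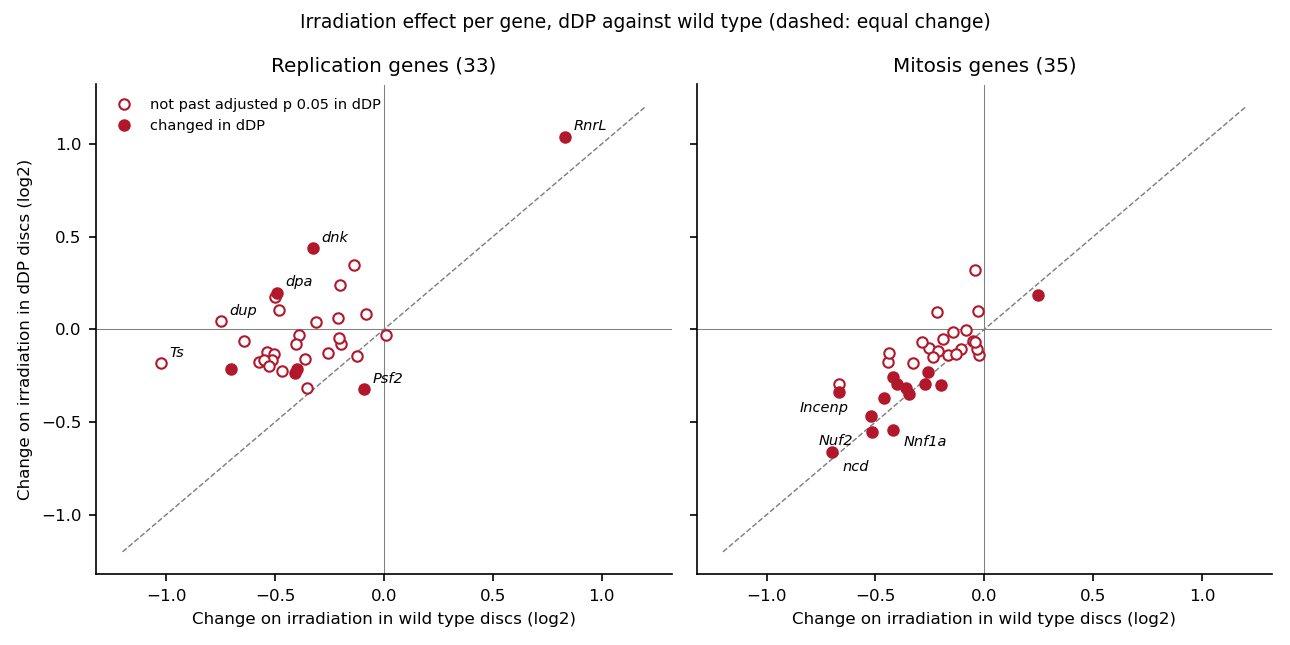
Change on irradiation (log2) of each of 33 replication and 35 mitosis genes in dDP discs (vertical) against wild type discs (horizontal), filled where the dDP change passed adjusted p 0.05, with a dashed line of equal change. Of the replication genes 30 of 33 lie above the line, and of the mitosis genes 23 of 35. The mitosis genes ncd, Nuf2, Nnf1a and Incenp, labelled for their small dDP adjusted p, lie near the line.

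A share of the mitosis genes fell in both dDP and wild type discs. Of 35 measured members 13 fell and 1 rose (median -0.14), 12 of the falls held with each dDP array left out, and in wild type discs 16 fell and 1 rose (median -0.26). ncd, a kinesin motor gene of the spindle, read 10.46, 10.27 and 10.31 on irradiated and 10.97, 11.04 and 11.02 on untreated dDP arrays. It fell by 0.66 on the log2 scale (SE 0.06, adjusted p = 6.3e-06), and its dDP minus wild type difference was 0.04 ± 0.08 (adjusted p = 0.911). Nuf2, a kinetochore gene, read 9.87, 9.72 and 9.75 on irradiated and 10.27, 10.36 and 10.39 on untreated dDP arrays and fell by 0.55 on the log2 scale (SE 0.05, adjusted p = 2.5e-05). Nnf1a, also of the kinetochore, fell by 0.54 on the log2 scale (SE 0.06, adjusted p = 9.1e-05), and Incenp, of the chromosomal passenger complex, fell by 0.47 (SE 0.06, adjusted p = 2.2e-04). No mitosis gene passed for the dDP minus wild type or the dDP minus de2f1 difference, although a p above the threshold does not show equal responses. Without untreated arrays 2 and 3, 10 genes of the list fell. bora, which encodes an activator of the mitotic kinase Aurora A, read 8.16, 7.81 and 7.97 on irradiated and 8.85, 8.97 and 8.89 on untreated dDP arrays, and it fell by 0.93 on the log2 scale (SE 0.08, adjusted p = 6.3e-06).

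Among the largest rises were genes of xenobiotic and aldehyde metabolism. The cytochrome P450 gene Cyp6d2 read 11.63, 11.82 and 11.46 on irradiated and 9.19, 9.67 and 9.77 on untreated dDP arrays, a rise of 2.09 ± 0.12 (adjusted p = 5.2e-07). AOX1, an aldehyde oxidase gene, read 10.41, 11.01 and 10.36 on irradiated and 8.02, 8.71 and 8.90 on untreated dDP arrays, a rise of 2.05 ± 0.23 (adjusted p = 9.1e-05). Both had groups that did not overlap, and untreated array 1 was the lowest. Ugt302K1, a UDP-glycosyltransferase gene, rose by 1.70 ± 0.09 (adjusted p = 1.5e-07) and Ugt302C1 by 1.02 ± 0.08 (adjusted p = 4.4e-06). Of 75 cytochrome P450 genes 6 rose (8.0%) and 5 fell (6.67%), and of 35 UDP-glycosyltransferases 3 rose (8.57%) and 1 fell (2.86%). Of 23 glutathione transferases 3 rose (13.0%) and 1 fell (4.35%). The P450 and UDP-glycosyltransferase counts were near the shares of all genes, 5.42% risen and 5.92% fallen. The transferase genes GstO3 (0.33 ± 0.04, adjusted p = 1.48e-04), GstE5 (0.85 ± 0.19, adjusted p = 0.0129) and GstD1 (0.20 ± 0.05, adjusted p = 0.0159) rose. Of these GstO3 alone held with each dDP array left out, and with the dDP arrays alone GstO3, GstE5 and GstD1 did not pass (adjusted p = 0.0652, 0.231 and 0.247). With salivary gland markers as a covariate GstE5 and GstD1 did not pass either (adjusted p = 0.134 and 0.126). GstO2 changed by -0.15 ± 0.04 (adjusted p = 0.0498), at the edge of the threshold. Of the other aldehyde oxidase genes AOX3 fell by 0.38 on the log2 scale (SE 0.10, adjusted p = 0.0325), a call lost with either covariate (adjusted p = 0.0589 for actin and 0.174 for salivary gland markers), when the dDP arrays were fitted alone (adjusted p = 0.14) and on omission of untreated arrays 2 and 3 (adjusted p = 0.176). AOX2 read near the lower quartile of the arrays on all dDP arrays, and AOX4 did not pass (-0.02, adjusted p = 0.934). The P450 genes Cyp12c1 (0.91 ± 0.11, adjusted p = 1.62e-04) and Cyp6d4 (0.67 ± 0.07, adjusted p = 4.73e-05) rose under every alternative run. Cyp6w1 (-1.03 ± 0.19, adjusted p = 0.00356) and Cyp6a2 (-0.84 ± 0.14, adjusted p = 0.00228) fell, but not with the dDP arrays alone (adjusted p = 0.14 and 0.128).

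Irbp18, which encodes a bZIP transcription factor, read 12.13, 12.29 and 12.25 on irradiated and 10.23, 10.65 and 10.79 on untreated dDP arrays, a rise of 1.67 ± 0.11 (adjusted p = 7.5e-07). Rises of 1.91 ± 0.13 for CG14695, 1.67 ± 0.11 for CG17294, 1.61 ± 0.20 for CG3448 and 1.59 ± 0.13 for CG12868 stood beside wild type changes of 1.83, 1.88, 2.34 and 2.13. CG17047 showed no called change in wild type discs (-0.17, adjusted p = 0.965). Its wild type means, 4.61 irradiated and 4.78 untreated, were near the lower quartile of the arrays (4.51 to 4.59), as was untreated dDP array 1. CG17047 read 7.999, 8.76 and 7.18 on irradiated and 4.65, 5.99 and 6.19 on untreated dDP arrays. This was a rise of 2.37 ± 0.48 (adjusted p = 0.00691), but its difference from wild type, 2.54 ± 0.72, did not pass (adjusted p = 0.269). Snap25, a SNARE gene of synaptic vesicles and 1 of the neuron markers, read 8.80, 9.41 and 9.12 on irradiated and 7.19, 7.51 and 7.17 on untreated dDP arrays, a rise of 1.82 ± 0.33 (adjusted p = 0.00336). With salivary gland markers as a covariate Snap25 and CG17047 fell short (adjusted p = 0.0635 and 0.0514). The other 9 neuron markers did not pass, and the neuron marker mean was 7.80 to 7.98 on irradiated and 7.32 to 7.71 on untreated dDP arrays. The part of neuron content in the Snap25 rise was not tested.

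The largest falls included genes of the cuticle and genes of unknown role. Cpr72Ea, a cuticle protein gene, read 6.89, 5.91 and 7.56 on irradiated and 8.53, 8.20 and 8.87 on untreated dDP arrays, and it fell by 1.75 on the log2 scale (SE 0.32, adjusted p = 0.00354), near the -1.88 of wild type discs. Cpr65Ec fell by 1.05 (SE 0.18, adjusted p = 0.00228). Cpr47Ec fell by 0.67 (SE 0.10, adjusted p = 6.14e-04), and Cpr51A fell by 0.37 (SE 0.07, adjusted p = 0.00431). With the dDP arrays alone Cpr72Ea, Cpr65Ec and Cpr51A did not pass (adjusted p = 0.129, 0.115 and 0.121). Nor did Cpr72Ea and Cpr65Ec with salivary gland markers as a covariate (adjusted p = 0.0633 and 0.0788). Without untreated arrays 2 and 3 the falls of Cpr65Ec and Cpr51A shrank to changes of -0.90 and -0.26. In the Cpr family 7 of 66 fell (10.6%, against 5.92% of all genes) and none rose, and 4 of the 7 held with each array left out. CG3355 fell by 1.52 (SE 0.27, adjusted p = 0.00301), GLaz, a lipocalin gene, fell by 0.99 (SE 0.13, adjusted p = 2.3e-04), CG13064 fell by 0.93 (SE 0.14, adjusted p = 7.2e-04) and Pbp45 fell by 0.92 (SE 0.12, adjusted p = 2.52e-04). The CG3355 call was lost without untreated arrays 2 and 3 (-1.01, adjusted p = 0.158), with salivary gland markers as a covariate (adjusted p = 0.0723) and with the dDP arrays alone (adjusted p = 0.132). With the dDP arrays alone GLaz and Pbp45 did not pass (adjusted p = 0.0555 and 0.0505). sro, which encodes an enzyme of ecdysone synthesis and is a ring gland marker, fell by 0.90 (SE 0.18, adjusted p = 0.00674), but not without untreated arrays 2 and 3 (adjusted p = 0.0585). The ring gland marker mean was 7.33 to 8.66 on irradiated and 7.52 to 8.41 on untreated dDP arrays, and its part in this fall was not tested.

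CG11125 and CG5250 showed falls that were tight across arrays. CG5250 read 7.25, 7.32 and 7.51 on irradiated and 8.34, 8.53 and 8.41 on untreated dDP arrays, and it fell by 1.07 on the log2 scale (SE 0.09, adjusted p = 5.2e-06). On wild type arrays it averaged 5.11 ± 0.01 irradiated (SD, n = 2) and 5.07 ± 0.14 untreated (SD, n = 3), so it was well above wild type on every dDP array. CG11125 read 8.05, 7.77 and 7.83 on irradiated and 8.81, 9.02 and 9.14 on untreated dDP arrays and fell by 1.11 on the log2 scale (SE 0.09, adjusted p = 5.2e-06).

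Genes of the mitochondrial ribosome fell often, but the count rested on untreated arrays 2 and 3. Of 69 measured members 30 fell and 2 rose (median -0.19), 10 of the falls held with each array left out, and 2 fell without untreated arrays 2 and 3. There were 53 falls without untreated array 1 and irradiated array 1, and 50 without untreated array 1 and irradiated array 2. None of the 69 fell in wild type or de2f1 discs, and none passed for the difference from either genotype. The median was -0.05 relative to untreated array 1, and -0.26 and -0.25 relative to untreated arrays 2 and 3. Actin controls on these 2 arrays exceeded those of array 1 by more than log2 1 in their 3-prime weight, and fat body markers averaged 12.27 on array 1 against 7.09 and 7.45. The part of either in the falls was not tested. mRpL36 read 10.33, 10.31 and 10.24 on irradiated and 10.65, 10.95 and 10.92 on untreated dDP arrays, and it fell by 0.55 on the log2 scale (SE 0.07, adjusted p = 2.3e-04), so array 1 was the lowest of the untreated ones. With the dDP arrays alone mRpL36 did not pass (adjusted p = 0.0601). Of 72 genes of the respiratory chain and ATP synthase, 17 fell and 1 rose, and none fell without untreated arrays 2 and 3. The falls numbered 27 without untreated array 1 and irradiated array 1, and 29 without untreated array 1 and irradiated array 2. The 1 rise, COX7AL, a subunit gene of cytochrome c oxidase, read 8.17, 8.56 and 8.33 on irradiated and 7.48, 7.57 and 7.59 on untreated dDP arrays (0.80 ± 0.10, adjusted p = 1.6e-04). Of the citric acid cycle genes 3 of 12 fell, ScsbetaG, of the succinyl-CoA synthetase, SdhD, of succinate dehydrogenase, and Idh, the isocitrate dehydrogenase gene, with changes of -0.33 ± 0.05, -0.32 ± 0.08 and -0.16 ± 0.04 (adjusted p = 0.00107, 0.0253 and 0.0376). SdhD and Idh did not pass without untreated arrays 2 and 3 (adjusted p = 0.6 and 0.401), and with the dDP arrays alone ScsbetaG, SdhD and Idh had adjusted p of 0.12, 0.227 and 0.325. None of 37 cytoplasmic ribosomal protein genes passed (median -0.03).

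Eye patterning genes showed no called change in dDP discs in the fit of all arrays. None of 11 retinal determination, 11 furrow and proneural and 15 photoreceptor differentiation genes passed, with medians of 0.03, 0.09 and -0.06. Without untreated array 1 and irradiated array 1, 1, 5 and 2 of them rose, and without untreated array 1 and irradiated array 2, 2, 4 and 3 rose. In each of these fits 1 furrow and proneural gene fell. More probe sets passed in both fits (3552 and 3496) than in the main one (1659). Among Notch targets of the E(spl) complex 2 of 12 rose (16.7%), Tom by 0.50 ± 0.06 (adjusted p = 9.1e-05) and E(spl)m3-HLH by 0.18 ± 0.04 (adjusted p = 0.0238), the second not with the dDP arrays alone (adjusted p = 0.272). Ribosome biogenesis genes rose in 5 of 19 cases, but in none without untreated arrays 2 and 3. Of these Surf6 (0.24 ± 0.05, adjusted p = 0.00452) alone held with each array left out, and Ns1 (0.40), Nopp140 (0.30) and Tif-IA (0.19) did not. Without untreated arrays 2 and 3 Surf6 was at adjusted p = 0.055. Of 18 aminoacyl tRNA synthetase genes 3 rose, with AlaRS (0.40 ± 0.05, adjusted p = 8.94e-05) ahead of GlnRS (0.25, adjusted p = 0.0146) and SerRS (0.16, adjusted p = 0.0412). With salivary gland markers as a covariate GlnRS and SerRS did not pass (adjusted p = 0.111 and 0.205). The mitochondrial chaperone gene Hsc70-5 rose by 0.23 ± 0.05 (adjusted p = 0.0171), the 1 call among 8 heat shock protein genes. It was lost with the actin (adjusted p = 0.062) or salivary gland covariate (adjusted p = 0.158), when the dDP arrays were fitted alone (adjusted p = 0.222) and on omission of untreated arrays 2 and 3 (adjusted p = 0.151). Of 17 ecdysone response genes ImpE3 (-0.87 ± 0.23, adjusted p = 0.0339) and MsrA (-0.23 ± 0.07, adjusted p = 0.0432) fell, and neither held with each array left out. Autophagy genes rose in 2 of 17 cases (11.8%), ref(2)P, the p62 receptor gene, by 0.60 ± 0.08 (adjusted p = 4.25e-04) and Atg17 by 0.61 ± 0.10 (adjusted p = 0.00224). Neither passed with the dDP arrays alone (adjusted p = 0.068 and 0.0643). Of 40 proteasome genes 1 rose, Rpt5, an ATPase subunit (0.22 ± 0.05, adjusted p = 0.00714), but not without untreated arrays 2 and 3 (adjusted p = 0.224). Of 11 immune genes none passed.

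**Figure D4:**
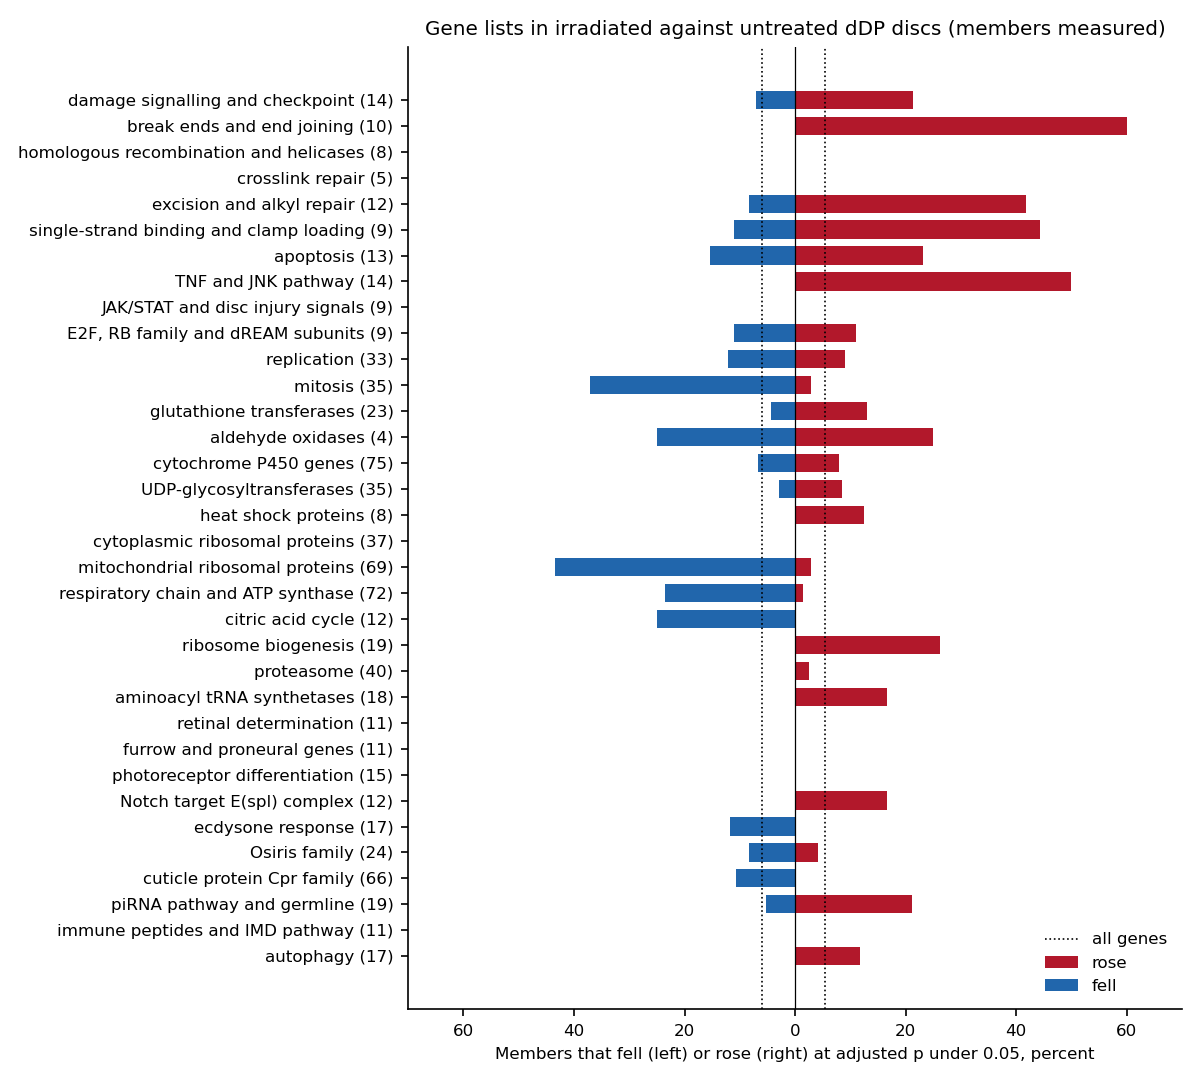
Share of measured members of each gene list (number in brackets) that rose (right, red) or fell (left, blue) at adjusted p under 0.05 in irradiated against untreated dDP discs, with dotted lines at the shares of all genes, 5.42% and 5.92%. Rises are most frequent among break end genes (6 of 10) and TNF and JNK genes (7 of 14), and falls among mitosis (13 of 35) and mitochondrial ribosome genes (30 of 69). The lists were chosen with earlier results of these data known.

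The response of dDP discs differed from that of wild type discs for 38 probe sets, 29 genes once 1 probe set was taken per gene, with 15 genes higher (0.125%) and 14 lower (0.117%). At an unadjusted p under 0.05 the difference reached 1777 of 18769 probe sets, a threshold that a share of 0.05 would pass on average with no difference at all. Of the 15 higher genes 11 fell in wild type discs and did not pass in dDP discs, like dup, and 2 fell in both, Osi4 and PolE2. Of the 14 lower genes 6 rose only in the wild type test, 5 fell only in the dDP test and 3, mre11, rad50 and spn-E, rose in both. The calls of 13 of the 29 genes held with each array of the 2 genotypes left out.

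Genes with a smaller rise in dDP than in wild type discs included a germline gene. spn-E, an RNA helicase gene of the piRNA pathway, read 11.29, 11.49 and 11.40 on irradiated and 10.61, 10.57 and 10.59 on untreated dDP arrays, a rise of 0.80 ± 0.08 (adjusted p = 2.5e-05). In wild type discs it averaged 9.76 ± 0.03 irradiated (SD, n = 2) and 7.94 ± 0.11 untreated (SD, n = 3), below the dDP arrays in both states, and its rise was 1.82 ± 0.09. The difference of the responses was -1.02 ± 0.12 (adjusted p = 0.0015), and against de2f1 it was -1.07 ± 0.11 (adjusted p = 9.7e-04). Of 19 piRNA pathway and germline genes 4 rose (21.1%) and 1 fell (5.26%) in dDP discs (median 0.07), against 5.42% and 5.92% of all genes. orb, which encodes an RNA-binding protein of the oocyte, read 5.58, 5.58 and 5.71 on irradiated and 4.38, 4.85 and 4.59 on untreated dDP arrays, a rise of 1.02 ± 0.13 (adjusted p = 2.78e-04), with the untreated arrays near the lower quartile. vret rose by 0.33 ± 0.07 (adjusted p = 0.00975), a call lost with the actin (adjusted p = 0.0518) or salivary gland covariate (adjusted p = 0.114), when the dDP arrays were fitted alone (adjusted p = 0.0977) and on omission of untreated arrays 2 and 3 (adjusted p = 0.111). squ fell by 0.86 on the log2 scale (SE 0.12, adjusted p = 4.83e-04). CG4962 rose by 2.01 ± 0.21 in wild type discs and changed by -0.09 ± 0.19 in dDP discs (difference -2.10 ± 0.28, adjusted p = 0.00405). In de2f1 discs CG4962 did not pass either. Cyp6a17, a cytochrome P450 gene, read 4.205, 4.37 and 4.39 on irradiated and 4.38, 4.45 and 4.41 on untreated dDP arrays, below the lower quartile of the arrays (4.51 to 4.59), so no fold is given for dDP discs. It rose by 1.62 in de2f1 and by 1.32 in wild type discs from a mean of 9.43.

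Genes that fell in dDP discs and did not pass in wild type discs formed the opposite class. CG4036 read 9.46, 9.23 and 9.28 on irradiated and 10.12, 10.19 and 10.15 on untreated dDP arrays, and it fell by 0.83 on the log2 scale (SE 0.06, adjusted p = 2.2e-06). Its difference from wild type was -0.65 ± 0.09 (adjusted p = 0.00515) and from de2f1 -0.67 ± 0.09 (adjusted p = 0.00479). sofe fell by 0.81 on the log2 scale (SE 0.06, adjusted p = 3.6e-06), with differences of -0.59 ± 0.10 from wild type (adjusted p = 0.0188) and -0.72 ± 0.09 from de2f1 (adjusted p = 0.00447). CG5250 differed by -1.10 ± 0.13 from wild type (adjusted p = 0.00172) and by -1.07 ± 0.12 from de2f1 (adjusted p = 0.00243). yellow-f2, of the pigment enzyme family, fell by 0.77 on the log2 scale (SE 0.12, adjusted p = 8.5e-04) and read below the lower quartile in untreated wild type discs (mean 4.42). The differences of CG5250 from both genotypes and of CG4036 and sofe from de2f1 held with each array left out, and those of CG4036, sofe and yellow-f2 from wild type did not.

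Osi4, of the Osiris family of insect membrane proteins, fell less in dDP discs. Of 24 Osiris genes 1 rose (4.17%) and 2 fell (8.33%), near the 5.42% and 5.92% of all genes. Osi4 read 6.03, 6.17 and 6.04 on irradiated and 6.84, 6.84 and 6.85 on untreated dDP arrays, and it fell by 0.76 on the log2 scale (SE 0.10, adjusted p = 2.3e-04). In wild type discs the change was -2.09 ± 0.11, and the difference of 1.33 ± 0.15 (adjusted p = 0.00134) held with each array left out. Osi14 read 8.57, 8.97 and 7.62 on irradiated and 6.33, 6.56 and 7.16 on untreated dDP arrays and rose by 1.70 ± 0.27 (adjusted p = 0.00131), but not with the dDP arrays alone (adjusted p = 0.107). Osi9 fell by 0.40 on the log2 scale (SE 0.11, adjusted p = 0.0394), but not without untreated arrays 2 and 3 (adjusted p = 0.679). WRNexo, the counterpart of the human Werner exonuclease gene, and timeout, a paralog of timeless, changed by 0.13 and 0.01 in dDP discs and by -0.70 and -0.80 in wild type discs (differences 0.83 ± 0.13 and 0.81 ± 0.12, adjusted p = 0.0128 and 0.00702). The timeout difference held with each array left out, and that of WRNexo did not.

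Against de2f1 discs the response differed for 22 probe sets, 17 genes, of which 7 were higher (0.0584%) and 10 lower (0.0835%), and 8 genes passed in both comparisons, which share the dDP arrays. Of the 7 higher genes 5 rose in dDP discs and did not pass in de2f1 discs. CG33468 read 7.11, 7.21 and 6.96 on irradiated and 5.79, 6.03 and 5.74 on untreated dDP arrays, a rise of 1.24 ± 0.10 (adjusted p = 4.1e-06) that exceeded the de2f1 change by 1.00 ± 0.14 (adjusted p = 0.011). mthl1, a receptor gene of the methuselah-like family (0.74 ± 0.09 in dDP discs), Cftr (0.60 ± 0.07), CG32195 (0.87 ± 0.07) and CG9331 (0.33 ± 0.05) were the others. The differences of CG33468 and CG32195 held with each array left out. Those of mthl1, Cftr and CG9331 did not, nor did that of Osi4 (0.94). With the dDP arrays alone the CG9331 rise did not pass (adjusted p = 0.0977). CG11125 differed by -1.02 ± 0.13 (adjusted p = 0.00447), and Rchy1 rose less in dDP than in de2f1 discs (-0.69 ± 0.10, adjusted p = 0.0117), a call that did not hold with each array left out.

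**Figure D5:**
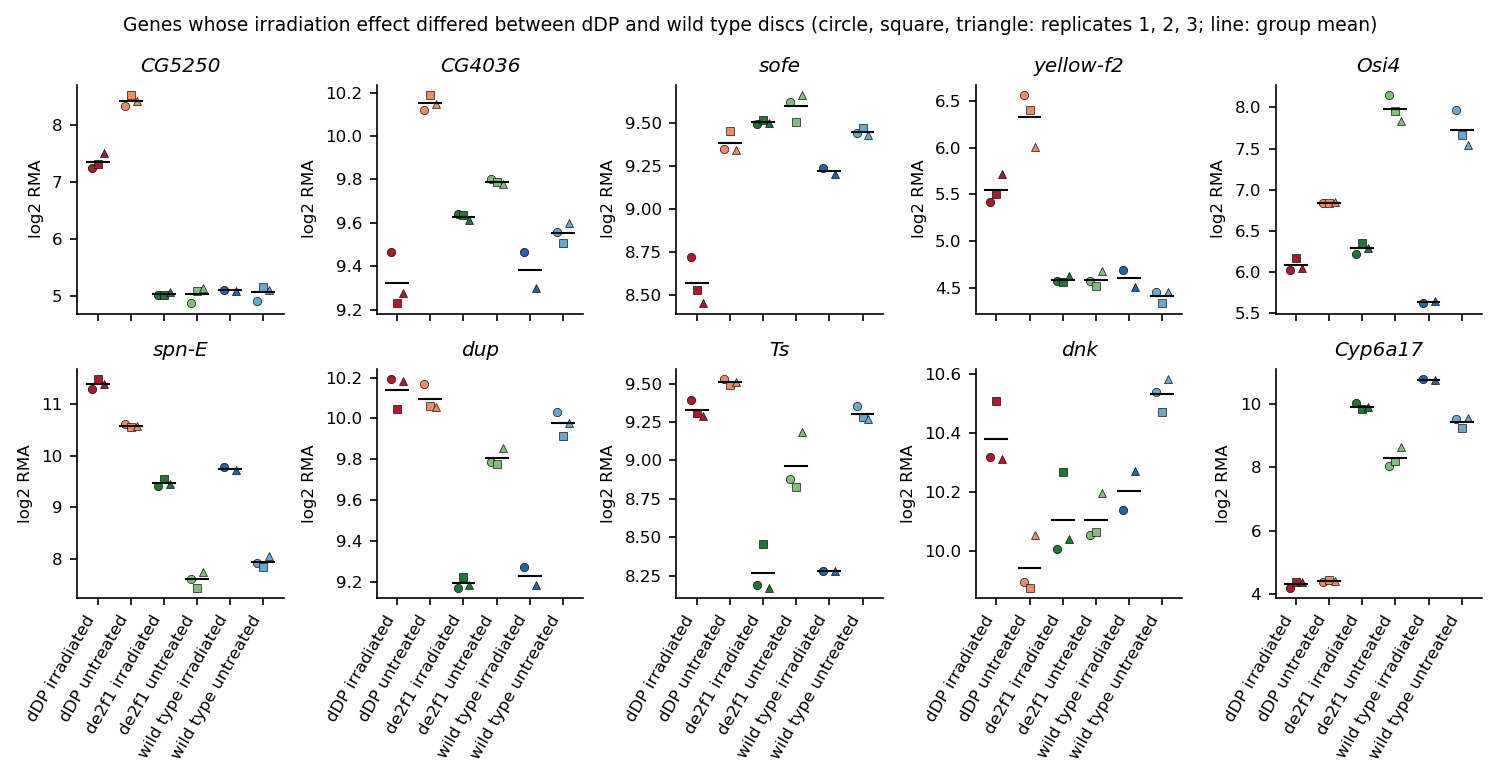
Log2 RMA level of 10 genes whose irradiation effect differed between dDP and wild type discs, on each array of the 6 groups (symbols are replicates 1, 2 and 3, lines are group means). CG5250, CG4036 and sofe are lower on irradiated than on untreated dDP arrays, dup and Ts are lower on irradiated than on untreated wild type arrays, and Cyp6a17 reads 4.205 to 4.45 on every dDP array.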

How the data were processed

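The authors deposited log2 expression levels of 18952 probe sets on 17 arrays, and the submitters' processing notes name RMA without a version. The 183 control probe sets were used for array quality only, and 18769 were tested. The number of arrays limits the precision. A single gene symbol was paired with 13647 of them, several with 402 and none with 4720. Each of 11982 genes was represented by its probe set with 1 symbol and the highest mean.

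All arrays entered a linear model with a mean for each group (limma 3.58.1 in R 4.3.3, prior 2.56 degrees of freedom, prior SD 0.0935, 11 residual degrees of freedom), with contrasts for each genotype's irradiation effect and its difference between genotypes. The Benjamini-Hochberg adjustment ran over the 18769 probe sets, calls were made at 0.05, and errors are standard errors of the contrast unless SD is given. These standard errors use the spread pooled over all groups in the fit, not that of the dDP arrays alone. The genes and lists were chosen with earlier results of these data known. Cp15 left the fat body list, and Rrp1 and mahj left the ribosome biogenesis list, because they had been placed there by mistake. Named were fixed genes, the 12 largest changes per direction that held with each dDP array left out without overlap between groups, up to 4 called members per list with the smallest adjusted p, all members of lists of up to 8 genes, and the 8 largest differences per direction with up to 3 called members per list. DNAlig4, gkt, Mcm5, PolE1, PolE2, tefu, mei-41, nbs, skl, grim, eya, ato, Sgs3, Eig71Ee and ng1 were named outside this rule. Same-numbered irradiated and untreated dDP arrays had correlations of -0.344, -0.395 and 0.051 between their deviations from the group means. With 3 arrays per group and several arrays that stood apart, these values cannot decide whether same-numbered samples were handled together. The labels state no pairing, and the main fit used none. Alternatives covered the prior, array weights, dim probe sets, probe sets per gene, quantile normalization, fitting a contrast's arrays alone, the replicate block, covariates and arrays left out. Leaving out untreated array 1 with irradiated array 2 was chosen after seeing the data. Promoter sequences were not used here. Python 3.11.15 with pandas 2.3.3 made the tables, and matplotlib 3.10.9 drew the figures.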

Additional observations from a re-analysis of the deposited data

Results flagged for a closer look

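The following results differed between genotypes by the limma test of the difference of the irradiation effects itself. Each value is the dDP effect minus that of the other genotype on the log2 scale, and no explanation was tested.

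Against wild type discs, replication and genome maintenance genes were higher: dup by 0.79, dpa by 0.69, Ts by 0.84, dnk by 0.76, PCNA by 0.44, WRNexo by 0.83 and timeout by 0.81. CG9752 was higher by 0.74 and Osi4 by 1.33. The break repair genes mre11 (-1.04) and rad50 (-0.67) and the piRNA gene spn-E (-1.02) were lower. So were CG4962 (-2.10), CG32313 (-1.41), CG5250 (-1.10), yellow-f2 (-0.96), CG4036 (-0.65) and sofe (-0.59). Untreated means of CG5250 were only 5.07 in wild type and 5.04 in de2f1 discs, where a fall could hardly show. In untreated wild type discs yellow-f2 read below the lower quartile. Cyp6a17 and CG31601 also passed the test of the difference, but both read below the lower quartile on every dDP array, so no size is given.

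Against de2f1 discs, CG33468 (1.00), Osi4 (0.94), mthl1 (0.78), Cftr (0.67), dup (0.66), CG32195 (0.65) and CG9331 (0.45) were higher. Cyp6a17 passed here too, again with no size given. Lower values were found for CG5250 (-1.07), spn-E (-1.07), CG11125 (-1.02), agt (-0.996), sofe (-0.72), Rchy1 (-0.69) and CG4036 (-0.67). The 2 sets share the dDP arrays.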

How the results depend on the processing

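For 168 results on named genes under the alternatives run, 3070 of 3517 values kept direction and side of the threshold, 364 no longer passed and 18 newly passed with the direction kept. Another 65 values, of 18 results in dDP discs, changed sign, and 1 of these passed, Apoltp without untreated array 1 and irradiated array 1 (0.90, adjusted p = 0.0393). The 1659 called probe sets (836 higher, 823 lower) became 3851 (1662 and 2189) with array weights, 564 (412 and 152) with salivary gland markers as a covariate, 3552 (1474 and 2078) without untreated array 1 and irradiated array 1, 3496 (1637 and 1859) without untreated array 1 and irradiated array 2, and 242 (181 and 61) with the dDP arrays alone. Without untreated arrays 2 and 3 the total was 1060 (491 lower), and with the actin covariate 516 were lower. With 1 array left out the total ran from 962 (untreated array 3) to 3849 (untreated array 1), with 980 without untreated array 2 and 1072 without irradiated array 2; rises ran from 543 to 1672 and falls from 410 to 2177. The 38 calls against wild type and 22 against de2f1 became 433 and 1365 with array weights, 214 and 210 without untreated arrays 2 and 3, 565 and 1048 without untreated array 1 and irradiated array 1, 1175 and 1349 without untreated array 1 and irradiated array 2, and 20 and 14 with the contrast's arrays alone. Leaving out 1 array gave 23 to 868 against wild type and 14 to 1284 against de2f1, both highest without dDP untreated array 1 and lowest without either irradiated wild type array or without de2f1 untreated array 1. Without the dimmest 40% of probe sets 35 passed against de2f1. With the replicate block 1376 probe sets passed (724 higher, 652 lower), 31 against wild type and 18 against de2f1. The cause of these shifts was not tested.

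Of 714 list medians under alternatives, 693 moved by less than the spread between replicates. Without untreated arrays 2 and 3 the medians were 0.26 for single-strand binding and clamp loading, 0.0080 for cytoplasmic ribosomal proteins, -0.0461 for mitochondrial ribosomal proteins, -0.0571 for the respiratory chain, 0.17 for aminoacyl tRNA synthetases and -0.16 for retinal determination. Salivary gland markers as a covariate gave 0.0644 for apoptosis, 0.0119 for aldehyde oxidases, -0.0625 for the citric acid cycle and 0.0568 for autophagy. Without untreated array 1 and irradiated array 1 they were 0.27 for excision repair, 0.12 for apoptosis and 0.0192 for UDP-glycosyltransferases, the last 0.0200 after quantile normalization. Apoptosis was at 0.0742 without untreated array 1 and irradiated array 2, and crosslink repair at -0.0892 with the actin covariate. Without the dimmest 40% of probe sets aldehyde oxidases were at 0.84, UDP-glycosyltransferases at 0.0619 and Osiris genes at -0.16. With 1 array left out apoptosis ranged between -0.0523 and 0.146 and immune genes between -0.250 and 0.0391.

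The changes of sign were of effects that did not pass in the fit of all arrays. With the actin covariate they were Dp -0.21, CycE -0.0675, mus301 -0.0081, Snm1 -0.0970, Lsp2 -1.50, Fbp2 -1.07, apolpp -0.88, btl -0.0156 and WRNexo -0.0331. With salivary gland markers they were AOX4 0.11, Lsp2 -2.71, Fbp2 -1.80, apolpp -0.60, CG9752 0.0266 and CG4962 0.0037, and with fat body markers Lsp2 -0.31. Without untreated arrays 2 and 3 they were Dp -0.33, CycE -0.16, dup -0.0256, mus301 -0.0208, Snm1 -0.14, AOX4 0.0015, Lsp2 -2.31, Fbp2 -3.09, apolpp -2.96, WRNexo -0.0694, CG9752 0.0106 and CG4962 0.0106. Array weights gave Fbp1 0.945, Apoltp 0.56, verm 0.0593, timeout -0.0258 and CG32313 -0.11, and quantile normalization gave AOX4 0.0127. Without untreated array 1 and irradiated array 1 Fbp1 was at 1.90, verm at 0.0533, timeout at -0.0084 and CG32313 at -0.0559. Without untreated array 1 and irradiated array 2 Fbp1 was at 1.26, Apoltp at 0.81, verm at 0.13, timeout at -0.0273 and CG32313 at -0.19. With 1 array left out these effects ran across 0, with lowest and highest values of mus301 -0.0284 to 0.11, Snm1 -0.0040 to 0.16, AOX4 -0.0336 to 0.0018, Lsp2 -0.46 to 1.42, Fbp1 -1.72 to 1.07, Apoltp -0.53 to 0.68 and btl -0.0087 to 0.16. The same range was verm -0.11 to 0.0610, timeout -0.0251 to 0.0413, CG9752 -0.0569 to 0.0346, CG4962 -0.15 to 0.0230 and CG32313 -0.11 to 0.14.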

Other observations

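The gut genes on untreated array 1 and irradiated array 2 belong to no comparison. The protease gene Jon65Aiv read 4.60, 12.91 and 4.57 on irradiated and 14.15, 4.61 and 4.90 on untreated dDP arrays. Jon25Bi read 4.29, 8.97 and 4.38 on irradiated and 10.11, 4.42 and 4.46 on untreated dDP arrays, and alphaTry 4.69, 9.47 and 4.81 on irradiated and 10.02, 4.89 and 4.79 on untreated ones. Gut markers averaged 4.93 to 5.27 on the wild type and de2f1 arrays.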
